A study of Mus musculus with 12 samples.

Results

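The early response to dexamethasone (DEX), a synthetic glucocorticoid, was described across all genes measured in primary mouse chondrocytes after 6 hrs. It rests on 6 of the 12 arrays of the series, the DEX and the vehicle array of replicates 1, 2 and 4, and each DEX array was compared with the vehicle array of the same replicate number. The cells were cartilage cells released from the tibiae, femurs and humeri of CD1 embryos at embryonic day 15.5 and grown as monolayers. They received 100 nM DEX or only DMSO, the solvent of DEX (vehicle), in medium that held ascorbic acid and beta-glycerophosphate in both groups. No gene was altered in any group. A parallel set of cultures was kept for 24 hrs, and its 6 arrays enter here for the estimate of the spread and as the later time point. The methods name no step that separated the layers of the growth plate.

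Glucocorticoids cross the cell membrane and bind the glucocorticoid receptor, a nuclear receptor held in the cytoplasm by heat shock proteins. The bound receptor enters the nucleus, where it sits on short inverted repeats in the DNA, the glucocorticoid response elements, and raises transcription of nearby genes. It also restrains AP-1 and NF-kB, transcription factors that drive cytokines and chemokines. In the growth plate, the cartilage that lengthens bones, long glucocorticoid treatment is known for slowing growth.

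The deposited values were linear GC-RMA intensities of 45101 probe sets, without read depth, so that the number of arrays limits the precision. The median intensity of the 6 arrays lay between 25.7 and 35.2, and each array held 17032 to 19261 probe sets at 50 or more. Replicates 1 and 2 were hybridized on 1 day and replicate 4 on another, and the first principal component of the 6 arrays, with 75.2% of the variance, set replicate 4 apart from replicates 1 and 2. The 3′ over 5′ signal of the Gapdh control, a sign of RNA integrity, followed the day, with a log2 ratio of 0.49 to 0.74 on the arrays of replicates 1 and 2 and of -0.33 and -0.32 on those of replicate 4. Between DEX and vehicle of a pair this ratio differed by -0.22, 0.17 and -0.01. Because both arrays of a pair shared a day, the comparison within pairs is free of the day difference in level. Chondrocyte markers were present, with all 16 listed genes above the minimum described next. Markers of other cells also passed it, 8 of 8 for tendon and perichondrium and 6 of 9 for muscle. For macrophages 6 of 10 passed, and for osteoclasts 2 of 5. Of 6 endothelial markers only Kdr passed, at 55.9 to 63.3 with vehicle, while Pecam1 did not exceed 12.2 on any of the 6 arrays. The hemoglobin gene Hba-a1 did not exceed 32.1 on any of them. Markers of chondrocytes (16 tested), hypertrophic chondrocytes (6), osteoblasts (1), muscle (6), macrophages (6), osteoclasts (2), endothelium (1) and tendon (8) held 0 genes past the threshold. Over all genes 0.934% rose and 0.457% fell, so 0 calls in lists this short say little about the cells. The adipocyte list also held 0 genes past the threshold, but its summed intensity rose through 1 gene, Fabp4, as described with the metabolic genes.

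A probe set was tested if its mean intensity reached 50 with DEX or with vehicle at 6 hrs, which left 18871 probe sets for 10282 genes. At an adjusted p under 0.05 in limma with the pair as a block, 225 probe sets changed, which is 1.19% of those tested. Of these, 148 rose and 77 fell, and all 225 moved 1 way in all 3 pairs. With 1 probe set per gene, 96 genes rose (0.934% of genes tested) and 47 fell (0.457%). The log2 fold change over all genes had a median of -0.01. In bulk RNA, a change in the share of cells that express a gene and a change in RNA per cell cannot be told apart.

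Rises were larger than falls. The probe sets that rose had a median log2 fold change of 1.24, and 97 rose by at least 2-fold, 19 by at least 4-fold and 7 by at least 10-fold. The falls had a median of -0.91, with 31 of at least 2-fold, 2 of at least 4-fold and 0 of at least 10-fold. Many rises started from a low level, with a vehicle mean under 50 for 46 of 148, and their median intensity went from 97.2 with vehicle to 238 with DEX. The falls started from a median of 180.2 and came down to 87.2, and 19 of 77 ended under 50. The groups did not overlap for 115 of the 148 rises and 49 of the 77 falls. Over all probe sets tested, the 3 DEX arrays lay above the 3 vehicle arrays in 3.14% and below them in 3.13%; since calls and overlap come from the same arrays, nothing is read from the difference.

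**Figure D1:**
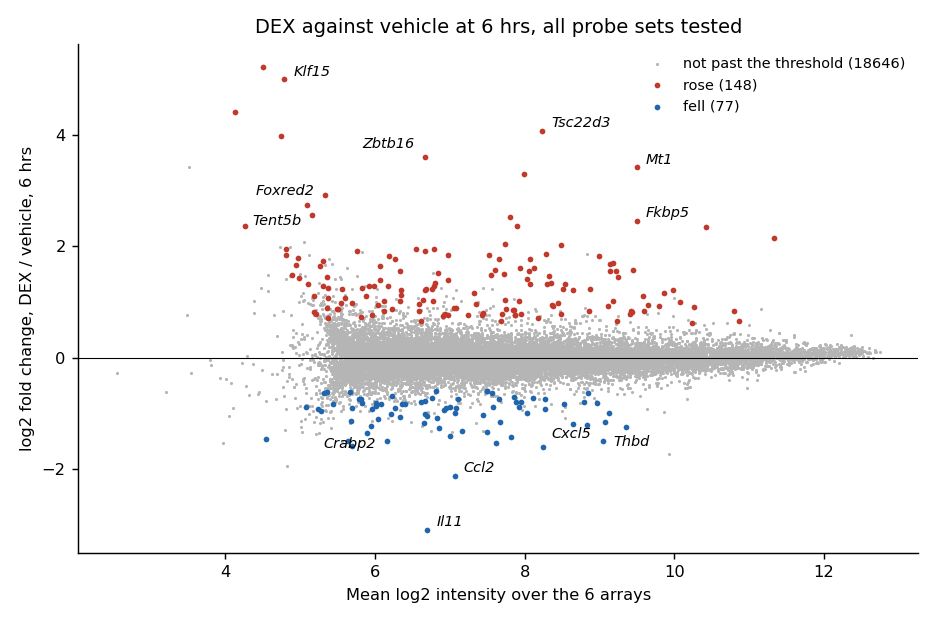
Log2 fold change of DEX over vehicle at 6 hrs (vertical axis) against the mean log2 intensity over the 6 arrays (horizontal axis) for the 18871 probe sets tested; red points are the 148 that rose, blue points the 77 that fell and grey points the others. Rises reach 5.22 on the log2 scale while the lowest fall, Il11, is at -3.09.

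The calls lean on the comparison within pairs and on the spread shared with the 24 hr pairs. Without the block 51 probe sets passed, all of them among the 225, and with the 6 arrays of 6 hrs alone the count was 92 with the block and 0 without it in limma, where 452 had an unadjusted p under 0.05. Of the 75 named genes past the threshold, 27 also passed without any 1 of the 3 pairs, and 31 passed in none of these 3 fits; no gene changed sign. The genes that held are marked below as passing without any 1 pair.

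**Figure D2:**
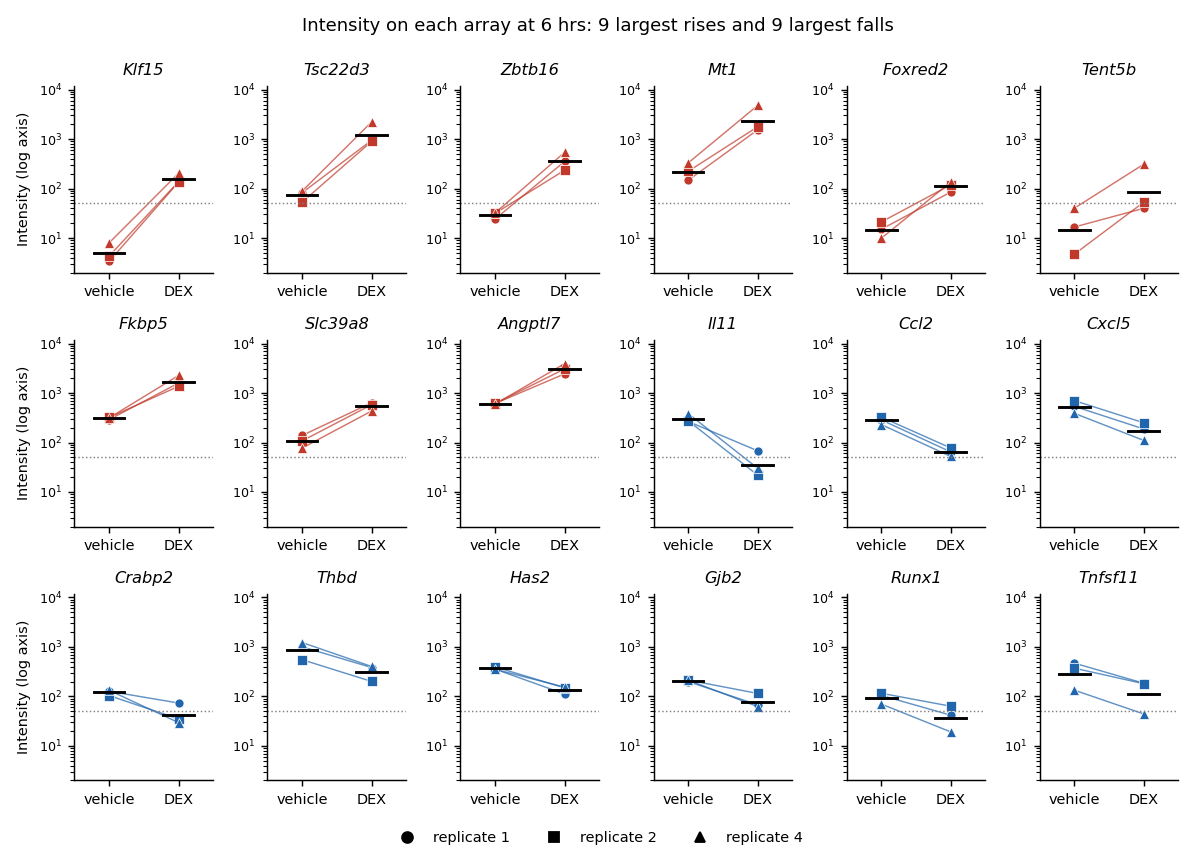
Intensity (log axis) of the 9 largest rises (red) and the 9 largest falls (blue) on each array at 6 hrs, with the vehicle and DEX array of a replicate joined by a line; black bars are geometric means of 3 arrays and the dotted line marks an intensity of 50. All lines of a gene run the same way, and of these 18 genes, Tent5b and Tnfsf11 have groups that overlap.

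Many genes known as direct targets of the receptor in other tissues rose. Of 40 listed established targets, 37 were tested, 15 rose (40.5%, against 0.934% of all genes) and 1, Angptl4, fell, and the median log2 fold change of the 37 was 0.60. Of the genes that rose, Klf15 and Zbtb16 had vehicle means of 5.23 and 29.4 and entered the test only through their DEX arrays. They could therefore hardly count except as rises. The list was drawn up from general knowledge, with earlier results of these data known. Without replicate 1, 2 or 4 the number that rose was 10, 11 and 10.

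Klf15, a Krüppel-like transcription factor that raises amino acid breakdown in muscle, changed most among named genes. Its intensity was 3.37, 4.33 and 7.99 with vehicle in replicates 1, 2 and 4 and 135, 138 and 204 with DEX. It went from a level far under the minimum on every vehicle array to one above it on every DEX array, a log2 fold change of 5.00 (SE 0.29, adjusted p = 3.85e-04), and 3.03 with 16 added to every intensity before log2. Tsc22d3, the glucocorticoid-induced leucine zipper, which binds NF-kB and AP-1 subunits, read 82.3, 53.1 and 89.0 with vehicle and 945, 897 and 2219 with DEX (log2 fold change 4.08, SE 0.19, adjusted p = 2.28e-04). Zbtb16, a zinc finger repressor also called PLZF, read 24.3, 31.7 and 32.2 with vehicle and 354, 235 and 541 with DEX (3.61 on the log2 scale, SE 0.22, adjusted p = 3.85e-04). In all 3 genes the lowest DEX array stood above the highest vehicle array, and all 3 passed without any 1 pair.

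Of 16 tested genes of the receptor, its chaperones and cofactors, 1 rose (6.25%, against 0.934% of all genes) and 0 fell. Nr3c1, the glucocorticoid receptor gene, read 615, 568 and 559 with vehicle and 473, 435 and 355 with DEX. The DEX arrays lay below the vehicle arrays, with a log2 fold change of -0.47 (95% interval -0.75 to -0.20), but it did not pass (adjusted p = 0.137), and 1 of its 4 probe sets had the opposite sign. Fkbp5 encodes a co-chaperone that lowers the affinity of the receptor for its ligand, and it was the only 1 of 16 tested genes of the receptor, chaperone and cofactor list to change. Its intensity was 289.9, 321 and 314 with vehicle and 1592, 1366 and 2262 with DEX, so that the vehicle arrays lay close together and every DEX array was far above them (log2 fold change 2.46, SE 0.21, adjusted p = 0.00179), and Fkbp5 passed without any 1 pair. The 2 brightest chaperones of the list in vehicle, Hspa8 and Hsp90aa1, had log2 fold changes of 0.13 and 0.06, and the median of the list was 0.01.

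Other transcription factors and clock genes rose by smaller amounts. Of 14 Krüppel-like factors tested, 4 rose (28.6%, against 0.934% of all genes) and 0 fell, with a median log2 fold change of 0.23. Besides Klf15 these were Klf9, a repressor found among receptor targets in many tissues (1.68, SE 0.18, adjusted p = 0.00458), Klf2 (0.84, adjusted p = 0.0250), a factor of quiet endothelium and T cells, and Klf7 (0.78, adjusted p = 0.0210). Klf9 shows why pairs matter here. It read 591, 638 and 83.2 with vehicle and 1987, 1678 and 312 with DEX, so that the DEX array of replicate 4 was below the vehicle arrays of the other replicates while its rise within the pair was the largest of the 3, at 1.91. Without a block its adjusted p was 1.00 over 12 arrays, and with it Klf9 passed without any 1 pair. Klf2 and Klf7 passed in none of the fits that left out a pair.

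Per1 and Per2, the period genes that close the negative loop of the circadian clock, rose. They were the only 2 of 15 tested clock genes that did (13.3%, against 0.934% of all genes). Per2 had a vehicle mean of 22.4 and entered the test only through its DEX arrays, so it could hardly count except as a rise. Per1 was steady between replicates, at 93.7, 95.6 and 102 with vehicle and 306, 355 and 386 with DEX (log2 fold change 1.84, SE 0.12, adjusted p = 5.64e-04), and passed without any 1 pair. Per2 went from 17.5, 19.2 and 30.5 to 56.3, 65.3 and 86.5, again with every DEX array above every vehicle array (1.65, SE 0.22, adjusted p = 0.0132), which was not past the threshold once a pair was left out (adjusted p from 0.0778 to 0.0827). The kinase Csnk1d, the brightest clock gene in vehicle, had a log2 fold change of 0.06.

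Foxo3, a transcription factor of atrophy and stress programs, read 174, 144 and 163 with vehicle and 330.2, 252 and 298 with DEX (0.87 on the log2 scale, adjusted p = 0.0152). Deptor, an inhibitor of the growth kinase mTOR, had a log2 fold change of 0.77 (adjusted p = 0.0163), and another of its 5 probe sets pointed down. These were the 2 of 16 tested FoxO and mTOR genes that rose (12.5%, against 0.934% of all genes). The median of the list was -0.01, and neither gene passed in a fit without 1 pair. Among 23 factors of the C/EBP and skeletal list, Foxa2 rose (1.02, adjusted p = 0.0223) and Runx1 fell (-1.35, adjusted p = 0.0267). Runx1, a factor of early skeletal and blood cells, read 105, 116 and 70.2 with vehicle and 41.8, 63.5 and 19.2 with DEX at this probe set, while the other 2 probe sets had log2 fold changes of -0.29 and 0.61 and did not pass.

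Metallothioneins, small proteins that bind zinc and copper, and a zinc carrier rose strongly. Mt1 read 147, 223 and 329.7 with vehicle and 1542, 1778 and 4790.2 with DEX (log2 fold change 3.42, SE 0.16, adjusted p = 2.28e-04). Mt2, its neighbour in the genome, read 1283, 1574 and 901 with vehicle and 4217, 4754 and 7952 with DEX (2.15, SE 0.27, adjusted p = 0.0118). In both genes the pair of replicate 4 changed most, by 3.86 and 3.14. Slc39a8 (ZIP8), which brings zinc and manganese into cells, read 139, 108 and 77.3 with vehicle and 635, 580.1 and 433 with DEX (2.37, SE 0.18, adjusted p = 0.00104). All 3 genes passed without any 1 pair. These were the only ones of 19 tested metallothionein and zinc transport genes past the threshold (15.8% rose, against 0.934% of all genes). The median of the list was -0.01. Probes of metallothioneins can share signal between near-identical copies, so how the rise divides between Mt1 and Mt2 is uncertain.

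Among the genes whose promoter could be searched, Mt1 had the largest rise of those that held the core of the receptor's element. Zbtb16 was not searched. RefSeq promoter windows (GRCm38.p6, 250 bases before to 50 after an annotated start) were at hand for 78 of the 96 genes that rose, 27 of the 47 that fell and 8392 of the 10282 tested. The core of the element, GNACANNNTGTNC, which reads the same on both strands, was in a window of 4 of 78 genes that rose (5.13%), 0 of 27 that fell and 28 of all 8392 (0.334%, the 4 included). Counted per window, to allow for genes with several starts, it was in 3.67% of 109 windows and 0.259% of 10808. The 4 genes were Mt1, Slc10a6, Suox and Map3k6; the last 2 lie outside the naming rule and were chosen after their values were seen (log2 fold changes 0.89 and 0.88). The shorter word TGTTCT on either strand, which overlaps 1 arm of the element, was in 10.3% of the genes that rose, 14.8% of those that fell and 14.2% of all. The AP-1 word TGANTCA, on either strand, was in 10.3%, 14.8% and 5.87%. Matches are descriptions of these letters in these windows, and elements farther from a start were not searched. The windows of Mt1 and of Slc10a6, a carrier of sulfated steroids, are given 5′ to 3′ on the gene's strand with the core match in capitals, since they are the named genes that hold it.
Mt1: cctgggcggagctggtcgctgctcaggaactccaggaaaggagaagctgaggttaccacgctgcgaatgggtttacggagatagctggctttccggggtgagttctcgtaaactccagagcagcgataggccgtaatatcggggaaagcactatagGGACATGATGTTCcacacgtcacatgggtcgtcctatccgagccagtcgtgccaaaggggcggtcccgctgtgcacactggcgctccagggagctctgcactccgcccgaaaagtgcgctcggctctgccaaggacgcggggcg
Slc10a6: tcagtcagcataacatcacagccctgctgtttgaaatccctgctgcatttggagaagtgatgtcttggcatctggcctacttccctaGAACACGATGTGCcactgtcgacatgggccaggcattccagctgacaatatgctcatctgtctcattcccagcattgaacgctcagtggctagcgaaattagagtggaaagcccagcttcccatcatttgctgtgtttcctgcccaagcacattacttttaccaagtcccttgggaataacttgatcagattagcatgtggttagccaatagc
The Mt1 window is chr8:94178839-94179138 on the plus strand, with 81 bases between the match, GGACATGATGTTC, and the annotated start used for the window. The RefSeq span of Mt1 begins at 94178883, inside this window and ahead of the match. The Slc10a6 window is chr5:103629354-103629653 on the minus strand, with 150 bases between the match, GAACACGATGTGC, and the start. Slc10a6 read 50.9, 75.9 and 45.8 with vehicle and 162, 283 and 226 with DEX, every DEX array above every vehicle array (log2 fold change 1.96, SE 0.17, adjusted p = 0.00200), and it passed without any 1 pair.

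Metabolic genes changed in single members of their lists. Pdk4, the kinase that shuts off pyruvate dehydrogenase, read 52.3, 73.8 and 76.2 with vehicle and 225, 211 and 283 with DEX (log2 fold change 1.84, SE 0.24, adjusted p = 0.0133). Pdp1, the phosphatase that turns the same enzyme back on, also rose (1.02, adjusted p = 0.0207). They were the 2 of 32 tested genes of glucose and pyruvate metabolism past the threshold (6.25% rose, against 0.934% of all genes). The median of the list was 0.08. Glul, which makes glutamine, read 231, 248 and 150 with vehicle and 724, 443 and 446 with DEX (1.35, adjusted p = 0.0153). It was the only 1 of 29 amino acid genes to change (3.45% rose, against 0.934% of all genes). Of the 29, 18 had a log2 fold change above 0, against 48.0% of all genes. Lpin1, a phosphatidate phosphatase and coactivator, rose (0.88, adjusted p = 0.0334), while Angptl4, an inhibitor of lipoprotein lipase, fell from 199, 192 and 396 to 90.0, 90.4 and 219 (-1.03, adjusted p = 0.0297). The fall of Angptl4 ran against the 15 rises of the established target list.

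Among the other cell types, the adipocyte list stood out in summed intensity, through 1 gene. Of 6 listed, 4 had a named probe set and 2 passed the minimum, and the summed intensity of those 2 went from 243 to 505 with vehicle to 749 to 1115 with DEX, log2 ratios of 1.14, 1.65 and 1.62 within pairs. The sum was carried by Fabp4, a fatty acid carrier of fat cells and macrophages, at 444, 276 and 109.8 with vehicle and 1057, 977 and 634 with DEX. All DEX arrays lay above all vehicle arrays, but Fabp4 did not pass (log2 fold change 1.87, 95% interval 0.98 to 2.76, adjusted p = 0.0761). The other one, Pparg, had a log2 fold change of -0.26. Adipoq and Lep, hormones of fat cells, stayed under the minimum. Adipoq read 6.99 to 10.2 with vehicle and 1.81 to 4.68 with DEX, and Lep did not exceed 6.45 on any array. The part of fat cells in the metabolic values was not tested.

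The falls were led by secreted signals. Of 36 listed chemokines, 16 passed the minimum, 5 fell (31.2%, against 0.457% of all genes) and 0 rose. Ccl7, with a DEX mean of 45.8, entered the test only through its vehicle arrays and could hardly count except as a fall. Of the 16, 2 had a log2 fold change above 0, against 48.0% of all genes, and the median was -0.79. Ccl2, which draws monocytes, read 287, 327 and 231 with vehicle and 64.6, 77.5 and 52.3 with DEX, nearly the same drop in every pair (log2 fold change -2.12, SE 0.12, adjusted p = 3.85e-04). Cxcl5, which draws neutrophils, read 538, 704 and 389.8 with vehicle and 188, 250.1 and 110.2 with DEX (-1.61, SE 0.11, adjusted p = 7.29e-04). Cx3cl1, or fractalkine, and Ccl7 fell by 1.17 and 1.10 on the log2 scale (adjusted p = 0.0228 and 0.0205). Ccl2 and Cxcl5 passed without any 1 pair, and leaving out replicate 1, 2 or 4 left 2 of the 5 falls each time. Cxcl1, the brightest chemokine probe set in vehicle, did not pass, with 1029.6, 976 and 269.6 with vehicle and 546, 502 and 198 with DEX (log2 fold change -0.77, adjusted p = 0.444).

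Il11, an interleukin of the IL-6 family, had the lowest log2 fold change of all probe sets that fell. It read 266, 275 and 383 with vehicle and 68.0, 21.9 and 30.2 with DEX (-3.09, SE 0.31, adjusted p = 0.00387). Every DEX array was below every vehicle array, yet the pairs were uneven, with Il11 log2 fold changes of -1.97, -3.65 and -3.66. Lif, of the same family, fell from 160.4, 232 and 155 to 58.9, 94.1 and 74.7 (-1.26, SE 0.16, adjusted p = 0.0103). Tnfsf11 (RANKL), the signal for osteoclast formation, read 471, 373 and 134 with vehicle and 185, 181 and 44.3 with DEX (-1.33, SE 0.15, adjusted p = 0.00681). Its decoy receptor Tnfrsf11b (osteoprotegerin) read 990.4, 880.2 and 584 with vehicle and 445, 537 and 195 with DEX (-1.15, SE 0.19, adjusted p = 0.0309). Of the pair, the decoy was lower on every DEX array, while the groups overlapped for the ligand through the low level of replicate 4. Among 16 cytokines tested 3 fell (18.8%, against 0.457% of all genes) and 0 rose (median -0.22). Il11, with a DEX mean under 50, entered the test only through its vehicle arrays and could hardly count except as a fall. Among 23 cytokine receptors 2 fell (8.70%, against 0.457% of all genes) and 0 rose (median -0.05). These were Tnfrsf11b and Il13ra1 (-0.72, adjusted p = 0.0408). Of these genes Il11 alone passed without any 1 pair, and Tnfsf11 and Tnfrsf11b passed without replicate 2 but not without replicate 1 or 4 (adjusted p up to 0.0531 and 0.171). The 6 macrophage markers above the minimum, a cell type that also makes chemokines, had summed log2 ratios of -0.13, -0.45 and 0.03 within the 3 pairs, and 0 of them passed; their part was not tested.

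AP-1 and NF-kB genes leaned downward, and in each list 2 of 22 tested genes fell (9.09%, against 0.457% of all genes). Of 22 AP-1 and immediate early genes, 6 had a log2 fold change above 0, against 48.0% of all genes. The median log2 fold change was -0.39, and 2 passed, Ier3, an early stress gene, and Jun, an AP-1 subunit. Ier3 read 1201, 895 and 945 with vehicle and 498, 459 and 331 with DEX (-1.25, SE 0.14, adjusted p = 0.00785). Jun read 821, 613 and 952 with vehicle and 403, 284 and 539 with DEX (-0.99, SE 0.15, adjusted p = 0.0228). Both were lower on every DEX array. Without replicate 1 or 4 the list held 0 calls and without replicate 2 it held 1; Jun did not pass in any of the 3 fits (adjusted p from 0.0935 to 0.135). Egr1, an immediate early factor and 1 of the 2 brightest members, had a log2 fold change of -0.48 (adjusted p = 0.175). Of 22 NF-kB genes, 19 had a log2 fold change below 0, the median was -0.21, and Vcam1, an adhesion molecule (-0.89, adjusted p = 0.0432), and Nfkbiz, a nuclear IkB protein (-0.80, adjusted p = 0.0169), fell; 0 passed once any 1 pair was left out. Nfkbia, the inhibitor IkB-alpha and a known receptor target, went the other way without passing (0.50, 95% interval 0.12 to 0.87, adjusted p = 0.265).

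In the prostaglandin pathway, 2 enzymes rose (18.2%, against 0.934% of all genes) and 1 receptor fell (9.09%, against 0.457%) among 11 genes tested. Pla2g5, a secreted phospholipase, rose from a vehicle mean of 17.7, under the minimum (log2 fold change 1.66, adjusted p = 0.0378). Ptgis, prostacyclin synthase rose with little spread, from 398, 428 and 402 to 793, 836 and 839 (1.01, SE 0.10, adjusted p = 0.00387). Ptger4, a receptor of prostaglandin E, fell from 379.5, 401 and 184 to 169.9, 173 and 85.6 (-1.16, SE 0.11, adjusted p = 0.00337). Ptgis and Ptger4 passed without any 1 pair. Ptgs2 (COX-2), the inducible enzyme of the pathway, read 1947, 1812 and 1593 with vehicle and 982, 678 and 230.3 with DEX; the DEX arrays lay below the vehicle arrays, but the pairs ranged from -0.99 to -2.79 and it did not pass (log2 fold change -1.73, 95% interval -2.52 to -0.94, adjusted p = 0.0654). Thbd (thrombomodulin), a receptor that limits clotting on endothelium, read 1007, 553 and 1230.1 with vehicle and 384, 201 and 403 with DEX and passed without any 1 pair (-1.49, SE 0.10, adjusted p = 7.29e-04).

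**Figure D3:**
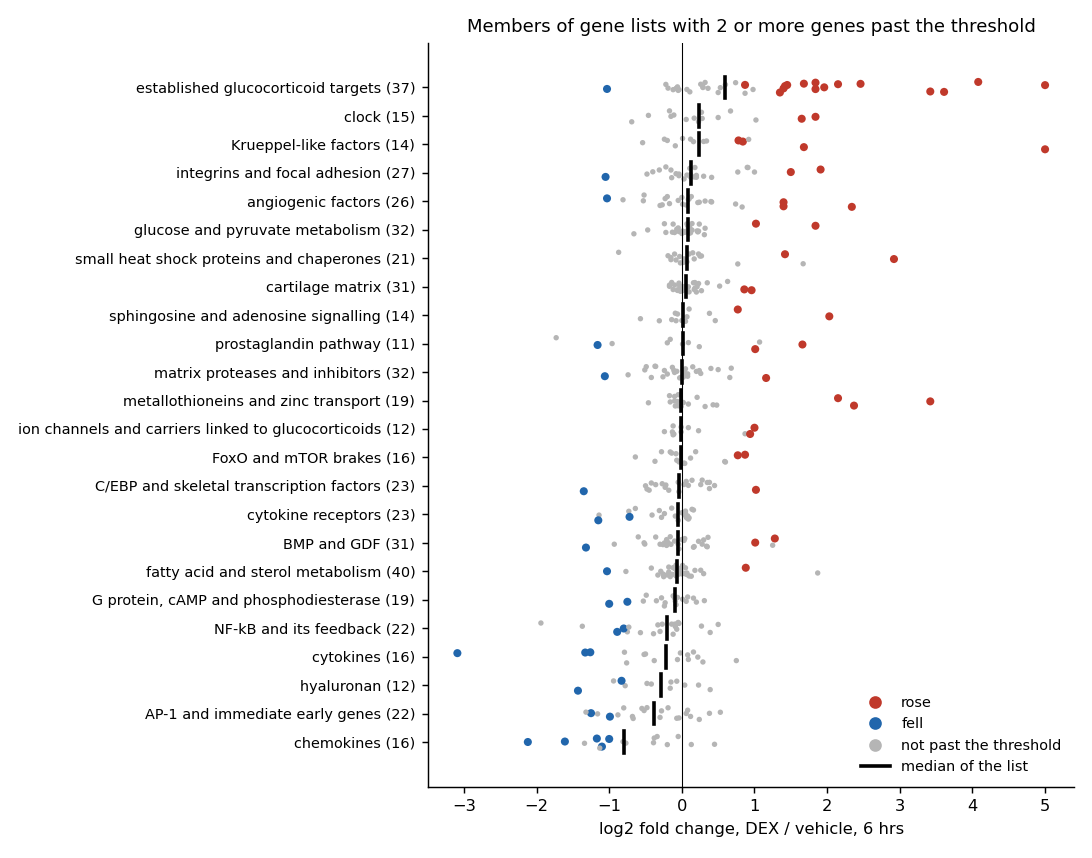
Log2 fold changes at 6 hrs of the tested members of the gene lists that hold 2 or more genes past the threshold, 1 row per list with the number tested in parentheses, ordered by the list's median (black bar); vertical scatter within a row has no meaning. The established targets sit highest, with a median of 0.60, and the chemokines lowest, with -0.79, while most other lists are centred near 0 with 1 to 4 genes far from it.

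Of 31 cartilage matrix genes tested at 6 hrs, 2 rose (6.45%, against 0.934% of all genes) and 0 fell. The median log2 fold change of the list was 0.06. The 2 brightest, Col2a1 and Col9a1, chains of cartilage collagens, had log2 fold changes of 0.20 and 0.10. Chad (chondroadherin), a leucine-rich protein that binds chondrocytes to collagen, read 63.6, 65.4 and 77.6 with vehicle and 126, 120.3 and 158 with DEX (0.96, SE 0.11, adjusted p = 0.00775). Omd (osteomodulin), of the same protein family, read 164, 164 and 182 with vehicle and 271, 276 and 394 with DEX (0.86, SE 0.12, adjusted p = 0.0184). Both were higher on every DEX array. Chad passed only without replicate 2, and Omd in none of the fits without a pair (adjusted p from 0.0767 to 0.119). Of the hypertrophy genes only Tnfsf11 changed, with log2 fold changes of 0.04 for Mmp13 and 0.12 for Col10a1, the brightest of the 16 tested.

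A synthase and a breakdown gene of hyaluronan fell. Has2, a synthase of this large matrix polysaccharide, read 356, 396 and 353 with vehicle and 112, 149 and 154 with DEX (log2 fold change -1.43, SE 0.12, adjusted p = 0.00198) and passed without any 1 pair. Cemip, a protein needed for its breakdown, read 117, 125 and 90.9 with vehicle and 63.8, 63.7 and 57.8 with DEX (-0.83, SE 0.11, adjusted p = 0.0139). They were the 2 of 12 tested genes of the list that changed (16.7% fell, against 0.457% of all genes), and the median was -0.29. Chst1, a sulfotransferase that acts on keratan sulfate, fell (-1.22, adjusted p = 0.0118). Of 32 proteases and inhibitors, Adamts1, a protease that cuts aggrecan and versican, rose from 627, 525 and 724 to 1259.5, 1206 and 1736 (1.16, SE 0.13, adjusted p = 0.00658), Plat, tissue plasminogen activator, fell (-1.06, adjusted p = 0.0172), and Timp1, the brightest, had a log2 fold change of -0.26. Col4a1, a basement membrane chain, was the only 1 of 20 collagens of fibroblasts and bone to change (0.83, adjusted p = 0.0304).

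Contacts between cells and matrix changed in single members. Lims2 (PINCH2), an adapter of focal adhesions, read 46.2, 54.8 and 57.2 with vehicle and 179, 159 and 271 with DEX (log2 fold change 1.91, SE 0.18, adjusted p = 0.00309). Tns1 (tensin), which links integrins to actin, rose by 1.33, 1.13 and 2.03 on the log2 scale in the 3 pairs (SE 0.17, adjusted p = 0.00739), and Itgb8, an integrin chain that activates TGF-beta, fell (-1.05, SE 0.12, adjusted p = 0.00868). The other 24 of 27 tested integrin and adhesion genes did not pass. Of this list 7.41% rose and 3.70% fell, against 0.934% and 0.457% of all genes. Gjb2 (connexin 26), a gap junction channel, read 199.7, 214 and 213 with vehicle and 67.6, 115 and 62.4 with DEX (-1.41, SE 0.20, adjusted p = 0.0183), whereas Gja1 (connexin 43), the brightest connexin, had a log2 fold change of -0.26 and did not pass. Lims2 and Tns1 passed without any 1 pair, and Gjb2 passed without replicate 2 but not without replicate 1 or 4 (adjusted p up to 0.118).

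Growth factor genes of the skeleton moved in both directions. Gdf5, a joint-forming member of the BMP family, read 227, 186 and 273 with vehicle and 115, 99.5 and 64.5 with DEX (log2 fold change -1.32, SE 0.24, adjusted p = 0.0451), with the pair of replicate 4 at -2.08 and the others at -0.98 and -0.90. Bmp8a, a BMP ligand, rose (1.28, adjusted p = 0.0123), and so did Fstl3, a secreted antagonist of activins (1.01, adjusted p = 0.00840). The other 28 of 31 tested BMP and GDF genes did not pass, and the median was -0.05. Of this list 6.45% rose and 3.23% fell, against 0.934% and 0.457% of all genes. Bmp8a, with a vehicle mean of 46.8, entered the test only through its DEX arrays. Wnt4 was the only 1 of 25 Wnt genes to change, at 31.0, 36.7 and 147 with vehicle and 87.2, 71.7 and 282 with DEX (1.13, adjusted p = 0.0367). In the IGF list, Stc1 (stanniocalcin), a secreted hormone, fell from 76.9, 69.3 and 82.5 to 28.5, 32.6 and 44.6 and passed without any 1 pair (-1.13, SE 0.13, adjusted p = 0.00694), while Igf2, the brightest, had a log2 fold change of 0.19. Of 9 EGF family genes only Lrig1, which restrains EGF receptors, fell (-0.90, adjusted p = 0.0468), with 1 of its 3 probe sets pointing up. Hbegf, a ligand of that receptor, was lower on every DEX array without passing (-0.98, 95% interval -1.45 to -0.51, adjusted p = 0.0754).

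Of the angiogenic factors, Angptl7 and Vegfd rose together with Hif3a. Angptl7, a secreted angiopoietin-like protein, read 615, 617 and 601 with vehicle and 2443, 3071 and 3923 with DEX, tight in vehicle and high on all DEX arrays (log2 fold change 2.34, SE 0.18, adjusted p = 0.00108). Vegfd, a lymphatic growth factor, rose by 1.40 (adjusted p = 0.00987), and Hif3a, a relative of the hypoxia factors that can inhibit them, also by 1.40 (adjusted p = 0.0159). With Angptl4 as the 1 fall, 4 of 26 tested genes passed, and the median was 0.08. Of this list 11.5% rose and 3.85% fell, against 0.934% and 0.457% of all genes. Vegfd, with a vehicle mean of 41.9, entered the test only through its DEX arrays. Angptl7 passed without any 1 pair.

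Signalling enzymes, a subunit of the sodium pump and a potassium channel also changed. Sphk1, which makes sphingosine 1-phosphate, read 203, 208 and 130.3 with vehicle and 868, 828 and 525 with DEX, rises of 2.09, 1.99 and 2.01 on the log2 scale (mean 2.03, SE 0.12, adjusted p = 3.85e-04). Its relative Sphk2 also rose (0.77, adjusted p = 0.0328). Pde4b, which breaks down cAMP, fell by 0.93, 1.07 and 1.00 on the log2 scale in the 3 pairs (SE 0.10, adjusted p = 0.00387), and Adcy7, an enzyme that makes cAMP, fell as well (-0.75, adjusted p = 0.0299). Sphk1 and Pde4b passed without any 1 pair, while Sphk2 and Adcy7 passed in none of these fits. Atp1b1, a subunit of the sodium pump, read 849.8, 788 and 666 with vehicle and 1519.9, 1484 and 1582 with DEX (1.00, SE 0.13, adjusted p = 0.0112), and Kcnk1, a potassium channel, rose by 0.94 (adjusted p = 0.0272). Without 1 pair Atp1b1 passed in none of the 3 fits and Kcnk1 in 1. Sgk1, the serum and glucocorticoid kinase that acts on such channels, was higher on every DEX array, from 2312, 1877 and 1117 to 3186, 3516 and 2619, but did not pass (0.87, 95% interval 0.46 to 1.27, adjusted p = 0.0689).

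Among the remaining genes with the largest changes, Foxred2, a flavoprotein of the endoplasmic reticulum that helps dispose of misfolded proteins, read 15.0, 21.1 and 9.89 with vehicle and 85.0, 119 and 135 with DEX (log2 fold change 2.92, SE 0.29, adjusted p = 0.00346, and 2.03 on the log2 scale with 16 added before log2). Jade2, a PHD finger protein of chromatin, read 168, 243 and 108 with vehicle and 703, 729.9 and 413 with DEX (1.86, SE 0.12, adjusted p = 5.30e-04). Otulinl, a relative of the deubiquitinase Otulin, rose by 1.95 (adjusted p = 0.00201). These 3 passed without any 1 pair, as did Cryab, a small heat shock protein, which rose by 1.45, 1.43 and 1.38 in the 3 pairs (SE 0.14, adjusted p = 0.00346). Tent5b, of a family that lengthens RNA tails, was uneven, with a mean of 20.5 (SD 17.9, n = 3) with vehicle and 135 (SD 153, n = 3) with DEX and log2 rises of 1.26 in replicate 1, 2.96 in replicate 4 and more than either in replicate 2 (2.57 on the log2 scale, SE 0.37, adjusted p = 0.0183; up to 0.125 without a pair, and a log2 value of 1.69 with 16 added). Crabp2, a carrier of retinoic acid, fell by 0.78, 1.56 and 2.17 in the 3 pairs (SE 0.24, adjusted p = 0.0271; up to 0.137 without a pair). Phlda1, an early gene linked to cell death, fell from 545, 493 and 1229 to 279, 262 and 362 (-1.21, adjusted p = 0.0442), and Ahr, the receptor of dioxin, from 199, 197 and 117 to 91.6, 90.4 and 57.6 (-1.09, adjusted p = 0.00694). Tob2, of an antiproliferative family, was the only 1 of 32 CDK inhibitor, D cyclin and Btg genes past the threshold (0.79, adjusted p = 0.0437), and 1 of its 5 probe sets pointed down.

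Over all genes 0.934% rose and 0.457% fell at 6 hrs, so a short list would often hold no call. Several programs had lists with 0 genes past the threshold in limma. These were the lists of DNA replication and mitosis (46 tested, median log2 fold change -0.06), actin and SRF targets (36, 0.10), apoptosis regulators (25, -0.02), TGF-beta (19, -0.10), dual specificity phosphatases (17, -0.08), FGF and ERK feedback (16, 0.07), interferon response (15, 0.04) and housekeeping genes (13, 0.12). Of the 46 replication and mitosis genes, 11 had a log2 fold change above 0, against 48.0% of all genes. Above 0 were also 26 of the 36 actin and SRF genes and 11 of the 13 housekeeping genes. Dusp1, a phosphatase of MAP kinases and a known receptor target, was the brightest phosphatase. It read 2024, 1698 and 1844 with vehicle and 2438, 2388 and 2303 with DEX, higher on every DEX array by a small amount (0.36, 95% interval 0.11 to 0.61, adjusted p = 0.221). Pcna, a marker of DNA replication, had a log2 fold change of -0.07.

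The changes at 6 hrs mostly had the same sign in the cultures of 24 hrs. Of the 148 probe sets that rose, 140 were above 0 at 24 hrs, 138 of them in all 3 pairs of that time, and of the 77 that fell, 70 were below 0, 65 of them in all 3 pairs. Over all probe sets the sign was the same in 47.5%. The size was larger at 6 hrs for 102 of the rises and 58 of the falls, and the median log2 fold change went from 1.24 at 6 hrs to 1.06 at 24 hrs for the rises and from -0.91 to -0.63 for the falls. Part of this is built in, since the probe sets were chosen for their value at 6 hrs. Tsc22d3 stood at 4.08 and 2.89, Mt1 at 3.42 and 1.98, and Jun at -0.99 and -0.22 at 6 and 24 hrs. In the other direction, Omd stood at 0.86 and 2.24, Cryab at 1.42 and 2.40, Slc39a8 at 2.37 and 3.28 and Gjb2 at -1.41 and -2.32. None of these differences passed (adjusted p for the difference from 0.0909 for Omd to 0.298 for Gjb2), and of 18871 probe sets only 1 did in limma, with 2561 at an unadjusted p under 0.05. No array day held both times, so time and day cannot be told apart.

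**Figure D4:**
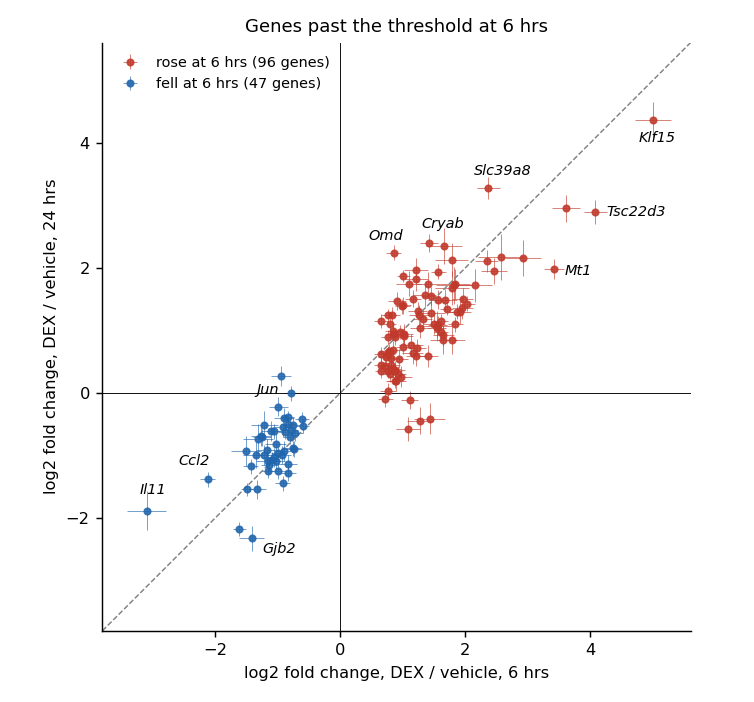
Log2 fold change of DEX over vehicle at 6 hrs (horizontal axis) and at 24 hrs (vertical axis) for the 96 genes that rose (red) and the 47 that fell (blue) at 6 hrs; bars are moderated standard errors and the dashed line marks equal values. Nearly all genes keep their sign, Tsc22d3 and Mt1 lie below the line, and Omd, Cryab and Slc39a8 lie above it.

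Genes past the threshold were seldom neighbours. In all, 3 pairs lay within 100 kb of each other in the RefSeq annotation (GRCm38.p6), Mt1 with Mt2 and Ccl2 with Ccl7, each moving the same way, and Il11 with Brsk1, a kinase gene named only for this, moving apart (-3.09 and 1.43). Of the 53 genes past the threshold with more than 1 tested probe set, 49 had all probe sets on the same side of 0, and Deptor, Runx1, Tob2 and Lrig1 did not.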

How the data were processed

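Total RNA of 3 DEX and 3 vehicle cultures at each of 6 and 24 hrs was hybridized to Affymetrix MOE 430 2.0 arrays, 12 in all. The authors corrected and summarised the scans with GC-RMA (GCRMA in the submitters' processing notes, no version given) in GeneSpring, and the deposited intensity values are linear. Array days were read from the deposited array files. From there, log2 intensities without a pseudocount were fitted with limma 3.58.1 (lmFit, eBayes) in R 4.3.3 over all 12 arrays, with the pair (replicate number within a time) as a block and a DEX effect at each time. Adjusted p is by Benjamini-Hochberg over the 18871 probe sets whose DEX or vehicle mean at 6 hrs reached 50, SE is moderated, and intervals are 95%. The script was tested on simulated data. Tables and figures used Python 3.11.15, pandas 2.3.3 and matplotlib 3.10.9.

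The block came from the replicate numbers of the labels, which the methods describe as independent cell isolations. The descriptions in the files of both replicate 4 arrays at 6 hrs end in 3 where the titles say 4, so that these 2 still pair with each other. Deviations from the group means correlated at 0.722, 0.674 and 0.879 for the same number, at 0.615 and 0.541 for replicates 1 and 2 crossed, which share a day, and at -0.795 to -0.710 across days. With the day removed, the difference of replicates 1 and 2 in DEX correlated with that in vehicle at 0.232. P-values of the main fit measure the spread of the difference between DEX and vehicle over the pairs of both times, moderated across probe sets.

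GEO's platform annotation gave 1 symbol for 34958 probe sets (34754 matched to RefSeq), several for 932 and none for 9211, and the last 2 kinds stayed unnamed. Of the 225 probe sets that changed, 12 are unnamed. A gene stands for its brightest tested probe set at 6 hrs. The members, the 42 pathway and 10 cell type lists and the tests were chosen with earlier results of these data known. Named were the 15 largest rises and falls with 1 sign in all pairs, up to 4 changed genes per list, Nr3c1, and the 2 brightest of a list in vehicle; others are marked. The 19 alternatives tried are described in the closing section.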

Additional observations from a re-analysis of the deposited data

How the results depend on the processing

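Of 19 alternatives, none turned the direction of a probe set that changed. Against 225 probe sets in all, 148 that rose and 77 that fell with the replicate block over 12 arrays, limma with no replicate block gave 51, 44 and 7, the replicate block over the 6 arrays of 6 hrs gave 92, 66 and 26, and no replicate block over these 6 gave 0, 0 and 0 (452 at an unadjusted p under 0.05). A Welch t-test on the 6 arrays of 6 hrs gave 0, 0 and 0 after adjustment, with 453 at an unadjusted p under 0.05 and 123 under 0.01. The study's own Welch ANOVA covered both times, used another filter and did report changed probe sets. The t-test here therefore does not repeat it. The pairs of replicates 1 and 2, on 1 day, gave 1, 1 and 0 by themselves, where 1 degree of freedom is left, with 1553 at an unadjusted p under 0.05. Without a filter on dim probe sets the counts were 0, 0 and 0 (3070 unadjusted), while a trended and robust variance prior gave 346, 223 and 123. A minimum of 100, an intensity of 50 on 3 of 12 arrays and quantile normalization gave 120, 50 and 43 falls, where the total and the rises stayed within 1.5-fold. Without 1 pair of 6 hrs or of 24 hrs, the total ranged from 62 to 201, the rises from 49 to 132 and the falls from 13 to 69. The number of probe sets whose effect differed between the times was 1, and became 0 with no replicate block, with hybridization day as a block or without the filter, 10 with a minimum of 100, 2 with 16 added before log2, 9 with the trended prior and 1 to 3 without 1 pair. The causes of these moves were not tested. Without the replicate block over 12 arrays, 50 of the 75 named genes past the threshold lost the call, and the splits between rises and falls under the other scalings were 128 and 43 (quantile) and 156 and 61 (median-centred). The smallest rise and fall that passed were 0.62 and -0.59 on the log2 scale.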

Other observations

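The probe set with the largest rise of all had no listed symbol; its log2 fold change was 5.22 (SE 0.26), with 4.60, 5.74 and 5.32 in the 3 pairs and 3.94 at 24 hrs. The 1 probe set whose effect differed between the times also has no listed symbol. It read 2311, 2079 and 1397 with vehicle and 2016, 1686 and 1053 with DEX at 6 hrs, and 1009, 612 and 597 with vehicle and 136, 77.3 and 81.7 with DEX at 24 hrs (log2 fold changes -0.30 and -2.91, adjusted p of the difference 0.00214 in limma).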
